A study of Mus musculus with 6 samples.

Results

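Smooth muscle actin and 9 genes that build or control the contractile actin cytoskeleton were followed in ADC106, a mouse angiosarcoma cell line. The 10 genes were picked by symbol, each matched to its mouse Ensembl identifier: the contractile genes Acta2, Tagln, Myl9, Cnn1, Cnn2, Tpm1 and Tpm2, and the regulators Srf, Mkl1 (Mrtfa in the reference annotation) and Myocd. All 10 were found among the 55401 genes of the deposited count table, and all 10 passed the filter on low counts that left 14661 genes for testing. Angiosarcoma is a malignant tumour of the cells that line vessels. Before RNA was taken, the cells received a mimic, a synthetic double-stranded RNA that supplies a chosen microRNA. The control group received an NC mimic and is labelled WT. The other group received an miR-497 mimic and is labelled miR-497 overexpression. Both mimics were used at 12.5 nM, and RNA was taken on day 3. Each group had 3 libraries of poly(A)-enriched RNA from this single cell line. The labels do not say whether the 3 came from separate cultures, so p-values measure only the spread between these libraries, which may be technical. Cells without a mimic were not analysed here.

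SRF, serum response factor, binds a DNA word called the CArG box and turns on genes of the actin cytoskeleton. Its partners of the MRTF family, among them the product of Mkl1, are held in the cytoplasm by monomeric actin and reach the nucleus when actin is assembled into filaments. Myocardin, encoded by Myocd, is the relative that drives the smooth muscle programme in vessel walls. A second set of partners, the ternary complex factors of the Elk family, directs SRF to immediate early genes after growth factor signals. In vessels the contractile genes are characteristic of smooth muscle cells and pericytes around the endothelium, and endothelial cells can acquire some of them when they take on mesenchymal traits.

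With the miR-497 mimic, 6 of the 10 genes rose and 1 fell (edgeR quasi-likelihood test, Benjamini-Hochberg adjusted p under 0.05 over all genes tested). Myl9, Tagln and Acta2 rose most, by 2.85-fold, 2.01-fold and 1.90-fold. Tpm1, Mkl1 and Cnn2 rose by 1.23-fold, 1.23-fold and 1.17-fold. Srf itself was 1.41-fold lower. Over all genes tested, 49.8% were called in either direction, 23.8% higher and 26.0% lower, so a called gene is common in this comparison. The median log2 fold change was 0.26 over the 10 genes and -0.02 over all genes tested.

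The guide strand that the mimic is named after, and the short stretches of DNA in which CArG boxes were found, are shown first because the fold changes are read against them. In the mature miR-497-5p of the mouse (RefSeq, GRCm38.p6, chr11:70234730-70234751, plus strand), capitals mark the seed, bases 2 to 8, which pairs with target transcripts.
mmu-miR-497a-5p: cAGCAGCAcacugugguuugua

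A site for this seed was counted as TGCTGCT, or as GCTGCTA, in the longest 3' UTR of a gene in GENCODE M21. Such a site was found in 2 of the 10 genes, Cnn1 and Tpm2, while 28.1% of the 12853 tested genes with a 3' UTR had one. Both are matches of TGCTGCT with no A after it, shown here with the flanking bases and with the match in capitals. The first starts at base 20 of the 1399-base 3' UTR of Cnn1 (chr9:22108237-22108258, plus strand), and the second at base 1042 of the 1210-base 3' UTR of Tpm2 (chr4:43514872-43514893, minus strand).
Cnn1: cccaaggggctggcTGCTGCTc
Tpm2: tcccctacctcaccTGCTGCTt

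Neither Cnn1 nor Tpm2 passed the test in either direction. The 3' UTR of Srf, the gene that fell, held no such site over 754 bases and 1 match to the shorter word GCTGCT. The 6 genes that rose held no site. In the shortest annotated 3' UTR, the site was kept in Cnn1 only.

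RefSeq promoter windows, from 250 bases before to 50 bases after the transcription start, were matched for 8 of the 10 genes, all but Tagln and Myocd. An exact CArG box is a word of 10 bases: CC, a run of 6 bases that are each A or T, and GG. This pattern is the same on both strands, although a single word that matches it need not be. An exact box was found in the windows of 3 genes, Srf, Cnn2 and Myl9, and in 1.63% of all 32851 windows. With 1 mismatch allowed, 6 genes had a match, while 21.1% of all windows did. The following stretches run 5' to 3' on the gene's strand, end before the exons annotated in GENCODE M21, and have exact boxes in capitals. They lie at chr17:46556176-46556282 (minus strand) for Srf, chr10:79988480-79988583 (plus) for Cnn2 and chr2:156775284-156775419 (plus) for Myl9, all in GRCm38.p6.
Srf: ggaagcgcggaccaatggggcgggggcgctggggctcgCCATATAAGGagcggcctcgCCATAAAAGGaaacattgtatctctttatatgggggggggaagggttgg
Cnn2: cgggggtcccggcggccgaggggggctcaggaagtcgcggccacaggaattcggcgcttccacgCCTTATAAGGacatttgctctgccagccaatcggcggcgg
Myl9: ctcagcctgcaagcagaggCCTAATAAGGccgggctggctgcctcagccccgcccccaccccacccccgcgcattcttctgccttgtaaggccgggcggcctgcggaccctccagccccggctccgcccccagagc

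Srf carried 2 exact boxes, starting 82 and 62 bases before its own start. The box of Cnn2 began 56 bases before the start and that of Myl9 161 bases before it. In Acta2 the window had no exact box and 2 words with 1 mismatch each, shown in capitals below (chr19:34255438-34255467 and chr19:34255388-34255417, minus strand). Counted from 1 at the first base of the box, with W for A or T, the mismatch is W3C in the first, 84 bases before the start, and W5G in the second, 34 bases before it. Both lie inside an exon that GENCODE M21 places further upstream than the RefSeq start.
Acta2, first word: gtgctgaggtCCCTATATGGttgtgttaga
Acta2, second word: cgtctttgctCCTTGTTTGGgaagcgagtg

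Of the 3 genes with an exact box, Myl9 and Cnn2 rose and Srf fell. Over all tested genes with a promoter window, 168 had an exact box. Of these, 30.4% were higher and 27.4% lower, with a median log2 fold change of 0.01. The other 10651 tested genes with a window were higher in 24.9% and lower in 27.2%, with a median of -0.02. A match describes the letters of a window and shows no binding.

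**Figure D1:**
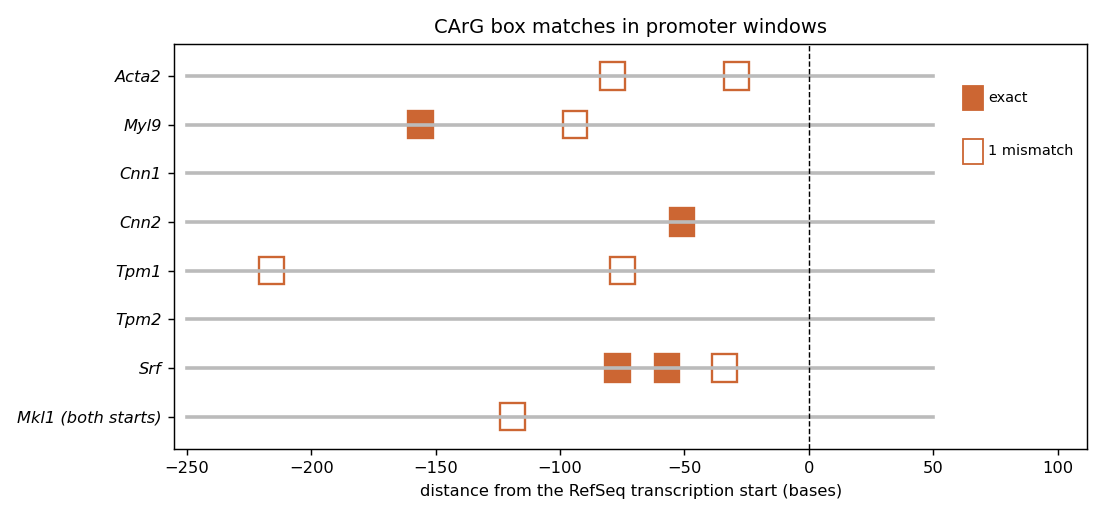
Matches to the CArG box in RefSeq promoter windows of 8 genes, by distance in bases from the transcription start (dashed line); filled boxes are exact matches and open boxes have 1 mismatch. Exact boxes appear in Srf, Cnn2 and Myl9, and Cnn1 and Tpm2 have no match of either kind.

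Library totals ranged from 25777676 to 36159499 counts. Within a group the Pearson correlation of log2 CPM (counts scaled to a common library size with TMM) across genes ran from 0.987 to 0.991, and between groups from 0.965 to 0.970. Genes are not independent, so these values only describe likeness. Mitochondrially encoded genes took 2.03% to 2.15% of the counts under NC, against 2.94% to 3.77% under miR-497; the part of this difference in the results was not tested.

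The cells carried transcripts of endothelium at high levels, while genes of the smooth muscle list ranged from absent to abundant. Endothelial markers summed to between 10800 and 11500 CPM with NC and between 10600 and 11100 CPM with miR-497. Pecam1, a junction protein of endothelium, was at 3550 ± 155 CPM with NC (SD, n = 3). Also on that list, Vwf was at only 4.17 ± 0.639 CPM with NC, and Sox17 had at most 1 count in a library. Smtn (smoothelin), Cald1 (caldesmon) and Mylk (myosin light chain kinase) stood at 309, 746 and 92.4 CPM with NC, summed over muscle and non-muscle isoforms. In contrast, Kcnmb1 was at 0 in every library, Myh11 (smooth muscle myosin) had 6 to 31 counts, Des (desmin) 9 to 19, Lmod1 (leiomodin) 10 to 33 and Actg2 (enteric smooth muscle actin) 3 to 16. The striated muscle actins Acta1 and Actc1 were at 0 counts throughout, as were the myogenic factors Myod1 and Myog. In bulk RNA, a change in the number of cells that make a transcript and a change in its amount per cell cannot be told apart.

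Within the 10 genes, levels were compared per kilobase of annotated exon, merged over all transcripts of a gene. This length was 6485 bases for Tpm1, whose longest transcript holds only 2841 overlapping windows of 50 bases. For Cnn2 it was 2460 bases, with 2411 such windows. The order of the genes, Cnn2 and Tpm1 included, therefore depends on the length used, as do the family shares below. With NC, Cnn2 and Tpm1 led at 71.3 ± 3.13 and 60.1 ± 0.919 CPM per kilobase (SD, n = 3). Srf followed at 20.6 ± 0.975, Acta2 at 16.9 ± 0.456, Mkl1 at 11.5 ± 0.177 and Tpm2 at 4.15 ± 0.473 CPM per kilobase. Myl9, Tagln, Myocd and Cnn1 lay below, at 1.77, 1.48, 1.15 and 0.304 CPM per kilobase, and among neighbours in this order only Myl9 and Tagln overlapped between libraries. Opposite-strand exons cover 67.9% of the exon bases of Tagln, and the part of this overlap in its rank was not tested. With miR-497, Acta2 at 32.0 ± 2.15 CPM per kilobase stood above Srf at 14.6 ± 2.09, which now overlapped with Mkl1 at 14.2 ± 0.591. Myl9 reached 5.07 ± 0.575 and overlapped with Tpm2 at 4.80 ± 0.0342 CPM per kilobase. Cnn2 and Tpm1 are both used well beyond muscle.

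Acta2 (ENSMUSG00000035783, chr19:34241090-34255590) encodes smooth muscle alpha-actin, a component of contractile filaments and stress fibres. Its level was 37.4, 35.9 and 37.8 CPM with NC and 75.6, 68.9 and 66.5 CPM with miR-497. All miR-497 libraries lay far above all NC libraries, with little spread in either group. The log2 fold change was 0.92 (standard error 0.0691, edgeR adjusted p = 1.1e-08), larger in size than that of 87.5% of all genes tested. The ubiquitous actin Actb did not pass the test (log2 fold change -0.11, edgeR adjusted p = 0.17), although it did without NC library 1 (-0.15, edgeR adjusted p = 0.043). The ratio of the pair needs no scaling of libraries. Acta2 had 13.0, 11.4 and 12.3 counts per 1000 Actb counts with NC, and 26.1, 24.0 and 24.8 with miR-497. In CPM per kilobase, Acta2 rose from 0.869% ± 0.047 to 1.74% ± 0.0559 of the summed actin genes (SD, n = 3), and Actb and Actg1 held nearly all of the rest in both groups. Of the 50-base windows of its transcript, 0.352% also occur in other genes, Actg1 and actin pseudogenes among them.

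Myl9 (ENSMUSG00000067818, chr2:156775420-156781658) encodes a regulatory light chain of myosin, whose phosphorylation starts contraction in smooth muscle and non-muscle cells. It had 59, 89 and 55 counts with NC and 140, 173 and 203 with miR-497. These are 1.78, 2.44 and 1.95 CPM against 5.57, 5.45 and 6.66 CPM, with no overlap between groups. The log2 fold change of 1.51 (standard error 0.213, edgeR adjusted p = 1.6e-05) was larger in size than that of 96.4% of genes tested. The related light chain Myl6, at far higher levels, did not pass the test (log2 fold change 0.01, edgeR adjusted p = 0.91).

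Tagln (ENSMUSG00000032085, chr9:45929619-45936058) encodes transgelin, or SM22, an actin-binding protein of early smooth muscle. Its counts were 102, 113 and 75 with NC and 116, 193 and 216 with miR-497. Scaled, they were 3.08, 3.09 and 2.66 CPM against 4.62, 6.08 and 7.09 CPM. The groups did not overlap, and the miR-497 libraries were spread more widely than the NC libraries. The log2 fold change was 1.01 (standard error 0.205, edgeR adjusted p = 0.00056). Exons of Pcsk7 and Gm48529 on the opposite strand cover 67.9% of the exon bases of Tagln. Without strand information reads of these genes cannot be told apart, and the strand setting is not given in the sources used here. Pcsk7 moved the other way (log2 fold change -0.42, edgeR adjusted p = 3.5e-05) and Gm48529 had 0 counts.

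The calponins bind actin and restrain myosin. Cnn1 (ENSMUSG00000001349, chr9:22099216-22109630), the smooth muscle calponin, was barely present, with 48, 20 and 14 counts with NC and 22, 24 and 39 with miR-497. NC library 1 held the highest value of all 6, and the groups overlapped. Its log2 fold change was 0.22 (standard error 0.465, edgeR adjusted p = 0.72), with an interval of 1.96 standard errors from -0.69 to 1.13. The data did not separate a rise from a fall within that interval. The log2 fold change rested on single libraries: it was 0.88 without NC library 1 and -0.03 without miR-497 library 3.

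Cnn2 (ENSMUSG00000004665, chr10:79988584-79996062), the calponin of many non-muscle cells, lay at 171, 184 and 171 CPM with NC and 207, 203 and 205 CPM with miR-497. The groups did not overlap, but the step was small, with a log2 fold change of 0.22 (standard error 0.0516, edgeR adjusted p = 0.0017). The third family member, Cnn3, rose by a like amount (0.26, standard error 0.0499, edgeR adjusted p = 0.00036). Of the summed calponin level per kilobase, Cnn2 therefore held 43.4% ± 1.00 with NC and 42.8% ± 0.274 with miR-497 (SD, n = 3), a difference smaller than the spread between NC libraries.

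Tropomyosins lie along actin filaments and set which motors and severing proteins reach them. Tpm1 (ENSMUSG00000032366, chr9:67022590-67049406) had 391, 395 and 383 CPM with NC and 489, 473 and 476 CPM with miR-497. No NC library came near a miR-497 library, and the log2 fold change was 0.30 (standard error 0.0503, edgeR adjusted p = 9.7e-05). Tpm2 (ENSMUSG00000028464, chr4:43514711-43523765) had 10.8, 13.6 and 11.9 CPM with NC and 13.9, 14.1 and 13.9 CPM with miR-497. The highest NC library nearly reached the lowest miR-497 library, and Tpm2 did not pass the test (log2 fold change 0.21, standard error 0.110, interval of 1.96 standard errors from -0.01 to 0.42, edgeR adjusted p = 0.13). The counts are sums over all transcripts of a gene, so the muscle and non-muscle isoforms of Tpm1 and Tpm2 cannot be told apart.

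Of the related tropomyosins, Tpm3 fell (log2 fold change -0.33, standard error 0.0589, edgeR adjusted p = 0.00017). Tpm4 was called lower by a smaller amount (-0.15, edgeR adjusted p = 0.038). Its call was lost with DESeq2 size factors (edgeR adjusted p = 0.08), upper quartile scaling (0.091) or the DESeq2 Wald test (DESeq2 adjusted p = 0.053), and without NC library 2 (0.085), NC library 3 (0.19) or miR-497 library 3 (0.16). Of the summed tropomyosin level per kilobase, Tpm1 made up 18.7%, 18.5% and 17.2% under NC, against 23.9%, 23.1% and 25.1% under miR-497. Tpm3 went from 33.4% ± 0.687 to 28.6% ± 0.293 (SD, n = 3). The share of Tpm1 did not overlap between groups, nor did that of Tpm3.

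**Figure D2:**
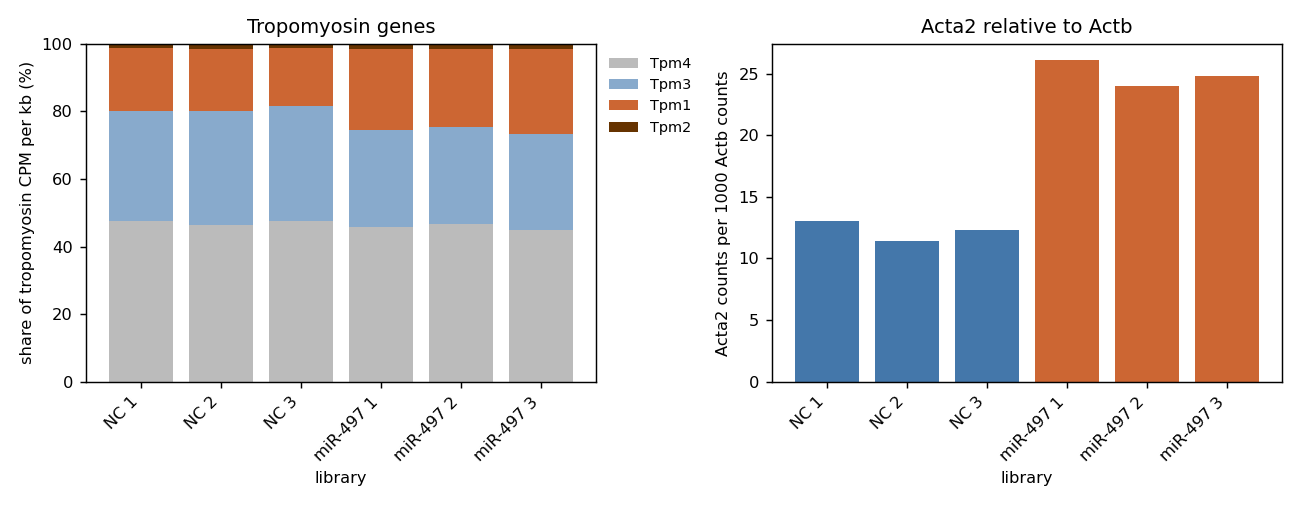
Left, share of each tropomyosin gene in the summed tropomyosin level (CPM per kilobase of exon, in percent) in each of 6 libraries. Right, Acta2 counts per 1000 Actb counts in the same libraries; the miR-497 libraries lie between 24.0 and 26.1 and the NC libraries between 11.4 and 13.0.

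Among the regulators, Srf (ENSMUSG00000015605, chr17:46548329-46556175) was the one gene of the 10 that fell. It had 62.8, 58.2 and 57.7 CPM with NC and 43.0, 47.8 and 35.8 CPM with miR-497. All 3 miR-497 libraries were below all NC libraries, with the lowest value in library 3. The log2 fold change was -0.50 (standard error 0.0888, edgeR adjusted p = 0.00017). Mkl1 (ENSMUSG00000042292, chr15:81012281-81190757), the actin-sensing partner of SRF, had 71.6, 69.4 and 70.4 CPM with NC and 82.5, 88.7 and 88.8 CPM with miR-497. It thus moved in the opposite direction to Srf, without overlap (log2 fold change 0.30, standard error 0.0581, edgeR adjusted p = 0.00038).

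Myocd (ENSMUSG00000020542, chr11:65176561-65269989), the smooth muscle partner of SRF, was detected at 7.42, 7.07 and 7.74 CPM with NC and 8.08, 9.95 and 8.01 CPM with miR-497. The groups just failed to overlap, and the test was not passed (log2 fold change 0.23, standard error 0.138, interval of 1.96 standard errors from -0.04 to 0.50, edgeR adjusted p = 0.18). The third MRTF gene, Mkl2 (Mrtfb in the reference), varied widely within both groups, with 8.84, 5.59 and 4.80 CPM for NC and 4.70, 8.40 and 9.15 CPM for miR-497. It did not pass either (0.22, standard error 0.238, edgeR adjusted p = 0.48). Of the summed level per kilobase of these 3 partners, Mkl1 held 86.1% ± 1.33 with NC and 86.7% ± 1.49 with miR-497 (SD, n = 3), and Myocd 8.62% ± 0.418 and 8.26% ± 0.845.

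**Figure D3:**
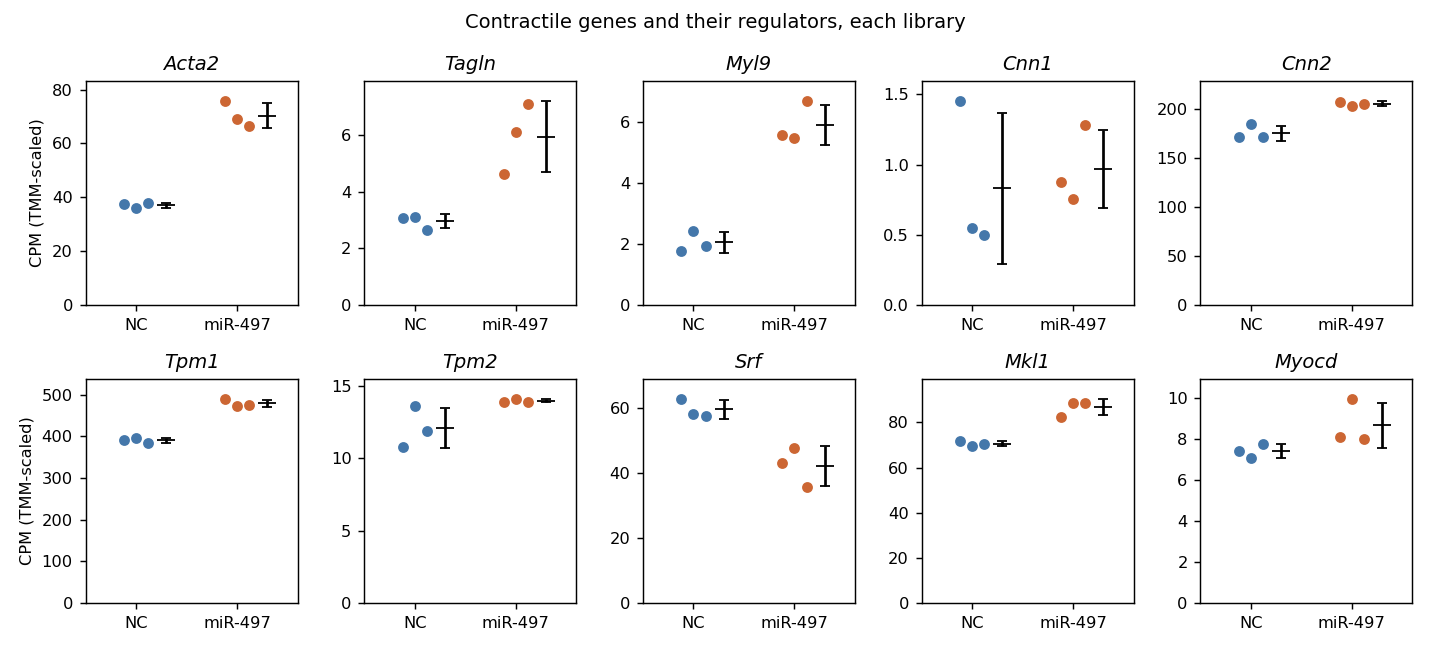
CPM in each library of the 10 genes (points; vertical axes start at 0 and differ between panels), with the mean and SD of 3 libraries beside each group. Groups overlap in Cnn1 and are apart in the 9 other genes.

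**Figure D4:**
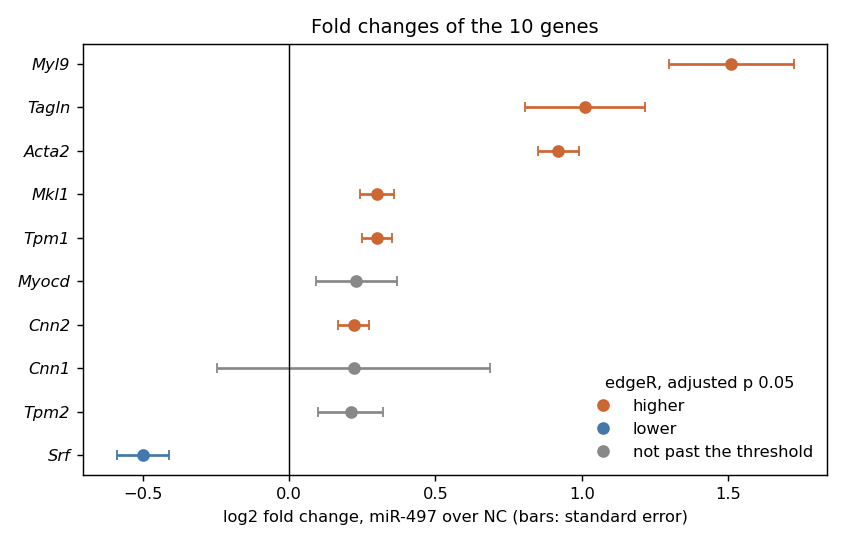
Log2 fold change of miR-497 over NC for the 10 genes with its standard error from edgeR, coloured by the call. Values run from -0.50 for Srf to 1.51 for Myl9.

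For 9 of the 10 genes all miR-497 libraries lay on one side of all NC libraries, where 57.4% of all genes tested did. The pattern over the 6 libraries was compared for Cnn2, the gene of the 10 with the highest level per kilobase of merged exon. That rank depends on the exon length used. The most similar of 6000 genes with a mean log2 CPM of at least 5 were Hhex, Ap1m1 and Nedd8, with Pearson correlations of 0.9988, 0.9975 and 0.9974 over 6 libraries. A correlation over 0.95 was reached by 457 genes, and all of them share the 2-group layout of the libraries.

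The other genes of the pathway moved in both directions, as did the genes tested over all, of which 23.8% were higher and 26.0% lower. Of 13 tested smooth muscle contractile genes outside the 10, 4 were higher and 4 lower (30.8% each), with a median log2 fold change of 0.09. Itga8, an integrin chain of smooth muscle, rose (0.50, edgeR adjusted p = 0.0026), and so did Smtn, smoothelin (0.16, edgeR adjusted p = 0.018). Mylk, the kinase that activates myosin light chains, fell (-0.29, edgeR adjusted p = 0.0032), as did Ppp1r14a, an inhibitor of myosin phosphatase (-0.64, edgeR adjusted p = 0.012). Cald1, caldesmon (0.15, edgeR adjusted p = 0.024), and Cnn3 were the other higher genes, and Tpm3 and Tpm4 the other lower ones. Only 2 genes of the list were called higher without NC library 1 or miR-497 library 2, and 2 lower without miR-497 library 3. The call of Cald1 was lost without NC library 1 (edgeR adjusted p = 0.082), NC library 2 (0.15) or miR-497 library 2 (0.079). The call of Smtn was lost without NC library 1 (edgeR adjusted p = 0.07), NC library 3 (0.056) or miR-497 library 2 (0.062), that of Ppp1r14a without miR-497 library 3 (0.057), and that of Tpm4 in the fits given above. Opposite-strand exons cover 16.3% of Smtn and 17.7% of Cnn3.

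Cytoskeletal genes known to respond to MRTF and SRF were also divided, with a median log2 fold change of -0.11. Of 19 tested, 6 were higher and 8 lower (31.6% and 42.1%), beside 23.8% and 26.0% of all genes tested. The matricellular genes Ctgf (-1.36, standard error 0.0555, edgeR adjusted p = 8.8e-12) and Cyr61 (-0.73, edgeR adjusted p = 5.4e-08) fell, and so did Zyx, a focal adhesion protein (-0.95, standard error 0.0591, edgeR adjusted p = 1.2e-09). Tuft1, at few counts, was also lower (-1.11, edgeR adjusted p = 0.0095). Ctgf and Cyr61 are also known targets of other regulators, and 23.2% of the exon bases of Ctgf lie under an opposite-strand gene. A site for miR-497-5p was found in 6 of the 20 listed genes, beside 28.1% of tested genes with a 3' UTR. Of the 6, 5 were lower, Ctgf, Vcl and Tuft1 among them, and 1 was higher. Of the 14 without a site, 3 were lower, 5 higher, 5 not called and 1 not tested. Zyx had 0 sites in its longest 3' UTR and 3 in its shortest. Among the 6 with a site in the longest 3' UTR, Pdlim5 and Lpp had 0 in the shortest. The part of these sites in the falls was not tested. Rises were found in Tgfb1i1, an adhesion adaptor (0.62, edgeR adjusted p = 0.0021), Flna, the actin cross-linker filamin A (0.57, edgeR adjusted p = 4e-07), and Wdr1, which promotes filament turnover (0.54, edgeR adjusted p = 4.1e-07). Of the 15 listed genes with a promoter window, 6 had an exact CArG box: Lima1 rose, Vcl fell, Actg1, Fhl1 and Fhl2 did not pass, and Filip1l was at 0. Fhl1 (0.82, edgeR adjusted p = 0.055) passed in 7 of the 13 alternative fits, and Fhl2 passed without NC library 3 (edgeR adjusted p = 0.024).

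Immediate early genes served by SRF and the ternary complex factors had 6 of 10 lower, 0 higher and 4 that did not pass, Fosb at 0.06 among them. The median log2 fold change was -0.37, or -0.58 without miR-497 library 2. The lower count was 4 with upper quartile scaling and without NC library 1 or NC library 2. Egr1, a zinc finger factor induced by growth signals, fell most, from 54.9 ± 1.88 to 16.9 ± 1.03 CPM (mean and SD, n = 3), a log2 change of -1.69 with standard error 0.0746 and edgeR adjusted p = 2.1e-11. Ier2 (-0.58, edgeR adjusted p = 7.6e-07) and Ier3 (-0.55, edgeR adjusted p = 2.9e-06) fell as well. The other 3 that fell were Fos, a subunit of the AP-1 factor, with 142 to 218 counts under NC and 58 to 61 under miR-497 (-1.51, edgeR adjusted p = 8.8e-05), Egr2 (-0.96, edgeR adjusted p = 0.046) and Junb (-0.20, edgeR adjusted p = 0.016). The call of Egr2 was lost with upper quartile scaling (edgeR adjusted p = 0.059) and without any 1 library other than miR-497 library 1 (0.06 to 0.18). That of Junb was lost with upper quartile scaling (0.06) and without NC library 1 (0.072), NC library 2 (0.054) or miR-497 library 1 (0.082). Among 10 cofactors and modulators of SRF, 3 were higher and 2 lower, with a median of 0.07. These are 30% and 20%, beside 23.8% and 26.0% of all genes tested. Of the ternary complex factors, Elk3 rose (0.41, edgeR adjusted p = 2.6e-05) and Elk4 fell (-0.46, edgeR adjusted p = 0.0041). Elk1 rose (0.31, edgeR adjusted p = 0.021) but its call was lost without NC library 1 (0.091), NC library 2 (0.052), miR-497 library 1 (0.11) or miR-497 library 2 (0.065). Gata6, a zinc finger factor at a low level, was the other higher gene (1.19, edgeR adjusted p = 0.00077). Hopx, an atypical homeodomain protein that restrains SRF, fell (-1.24, standard error 0.145, edgeR adjusted p = 2e-06); an antisense gene covers 27.2% of its exon bases.

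Upstream of MRTF, 6 of 19 tested regulators of RhoA and actin assembly were higher and 5 lower, with a median log2 fold change of 0.02. These are 31.6% and 26.3%, beside 23.8% and 26.0% of all genes tested. Limk1, the kinase that inactivates cofilin, more than doubled, from 29.1 ± 0.894 to 66.9 ± 4.68 CPM (mean and SD, n = 3), a log2 change of 1.20 with standard error 0.0725 and edgeR adjusted p = 8.6e-10. Rhob, a small GTPase, rose (0.85, edgeR adjusted p = 1e-09), as did Tmsb4x, which binds monomeric actin (0.59, edgeR adjusted p = 1.9e-07). The formins Diaph3 (-0.91, edgeR adjusted p = 1.3e-08) and Diaph1 (-0.54, edgeR adjusted p = 3.7e-06), which build actin filaments, fell together with the cofilin phosphatase Ssh1 (-0.66, edgeR adjusted p = 4.2e-07). A site for miR-497-5p was found in the longest 3' UTR of 9 of the 19 genes, beside 28.1% of tested genes with a 3' UTR. In the shortest annotated 3' UTR, Diaph1, Cfl2 and Arhgef12 kept a site. Diaph3, Ssh1, Rhoc, Rock2, Diaph2 and Ppp1cb had 0 there. Of the 9, 1 was higher (Rhoc, whose call was lost in 6 of the 13 alternative fits), 3 were lower (Diaph1, Diaph3 and Ssh1) and 5 were not called. Of the 10 without a site, 5 were higher, 2 lower (Cfl1 and Pfn1) and 3 not called. Among the immediate early genes, the 1 with a site was not called, and the 9 without held all 6 lower genes. Of the 15 smooth muscle contractile genes, 4 had a site, 1 lower and 3 not called. The 11 without had 4 higher and 3 lower. Of the 10 SRF cofactors and modulators, the 1 with a site was not called, and the 9 without had 3 higher and 2 lower. The part of these sites in the falls was not tested.

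**Figure D5:**
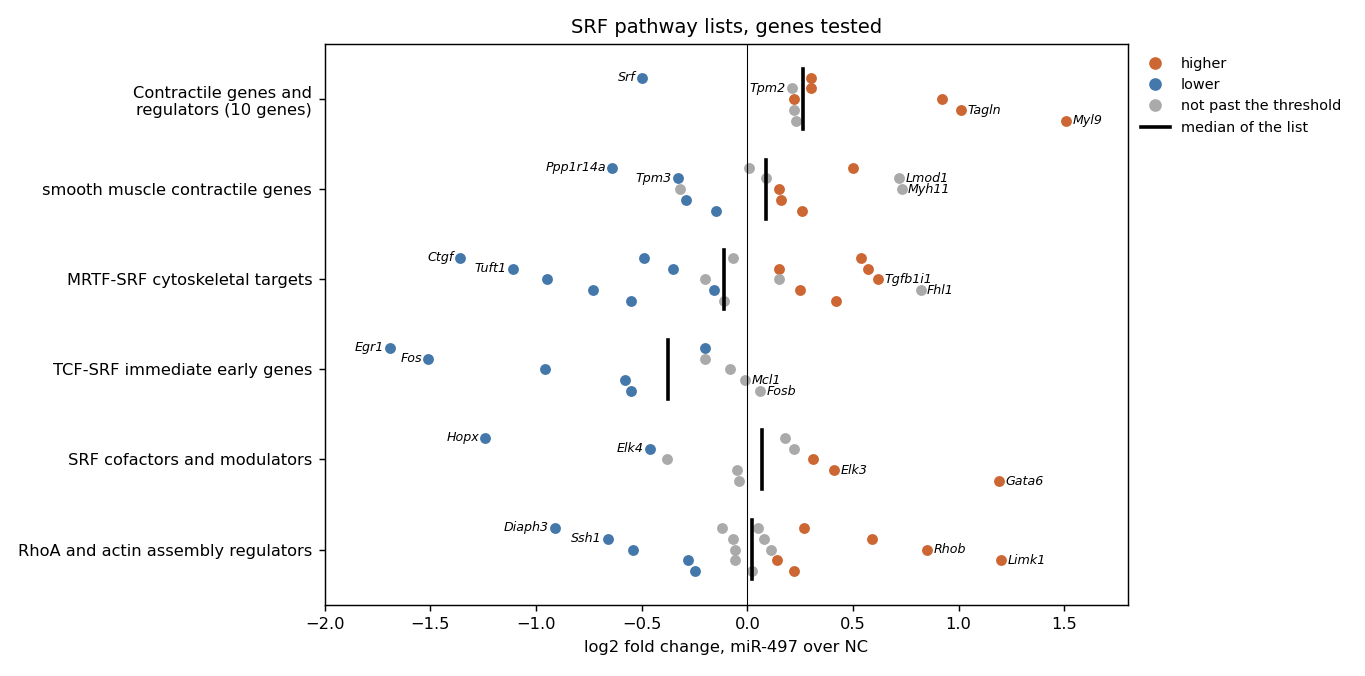
Log2 fold change of miR-497 over NC for the tested genes of the 10 and of 5 pathway lists; points are genes, coloured by the edgeR call, bars are list medians, and the outermost genes are named. Immediate early genes reach -1.69 (Egr1) and have no gene called higher; every list shown crosses 0.

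Markers of other cell types that could carry contractile transcripts were also measured. Their counts are read beside the 23.8% higher and 26.0% lower over all genes tested. Of 6 tested fibroblast markers, 2 were higher and 3 lower, and the list summed to between 284 and 301 CPM with NC and between 431 and 516 CPM with miR-497. Col1a1 and Col1a2, collagen I chains, rose (log2 fold changes 0.84 and 1.15, edgeR adjusted p = 7.4e-09 and 4.4e-10), while Col3a1 (-0.79, edgeR adjusted p = 1.9e-05), Thy1 (-0.47, edgeR adjusted p = 0.0057) and Fap (-2.45, edgeR adjusted p = 0.00017) fell. Fap had few counts, 30 to 114 with NC and 9 to 18 with miR-497. Lum was at 0 and Dcn had at most 4 counts in a library. Pericyte markers had 2 of 6 higher and 2 lower, summing to between 78.7 and 85.5 CPM with NC and between 65.5 and 82.2 CPM with miR-497. Pdgfrb (52.8 ± 3.35 CPM with NC, SD, n = 3) and Cspg4 (18.3 ± 1.28 CPM) were present, while Rgs5 and Kcnj8 had at most 22 and 12 counts in a library. Abcc9 (0.80, edgeR adjusted p = 1.5e-05) and Anpep (2.72, edgeR adjusted p = 1.3e-05) were higher, and Pdgfrb (-0.37, edgeR adjusted p = 0.005) and Notch3 (-1.37, edgeR adjusted p = 0.0019) lower. Anpep had 7 to 20 counts with NC and 68 to 75 with miR-497, and Notch3 59 to 118 and 25 to 32. Endothelial markers had 8 of 14 higher and 4 lower. The larger rises were in Emcn (1.03, edgeR adjusted p = 3.2e-10), Cldn5 (1.02, edgeR adjusted p = 4.4e-10) and Vwf (0.80, edgeR adjusted p = 0.0016), and the larger falls in Egfl7 (-0.94, edgeR adjusted p = 4.5e-08), Pecam1 (-0.52, edgeR adjusted p = 2.7e-06) and Eng (-0.39, edgeR adjusted p = 1.8e-05). Vwf had 97 to 170 counts with NC and 145 to 262 with miR-497. Striated muscle markers had 1 of 3 higher, Tnnt3 (1.16, edgeR adjusted p = 0.00044), and 1 lower, Tnnt2 (-0.48, edgeR adjusted p = 0.00023), and summed to at most 26.2 CPM. The part of these markers in the rises of Acta2, Tagln and Myl9 was not tested.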

How the data were processed

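The deposited table holds raw counts of reads per mouse Ensembl gene, which the authors had not normalized, with 1 column per library. The submitters' processing notes name STAR 2.5.4b, featureCounts, Subread 1.6.1, edgeR 3.32.1 and the build GRCm38, with no roles; the annotation release, strand setting and handling of multiply aligned reads are not given in the sources used here. Symbols, exon lengths and 3' UTRs came from GENCODE M21 (GRCm38), which matched 55141 of 55401 identifiers, and promoters and the microRNA from RefSeq (GRCm38.p6).

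Differential expression was tested across all genes with edgeR 4.0.16 in R 4.3.3: filterByExpr (minimum count 10, minimum total 15), TMM scaling, and the quasi-likelihood test with group as the only term. CPM are counts per library size after TMM. Standard errors are the log2 fold change divided by the square root of F. Alternatives used DESeq2 1.42.0, limma 3.58.1 voom, other scalings and filters, a replicate block and each library left out. The code was tested on simulated data. Counting error limits genes with few counts.

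The genes and lists were chosen with earlier results of these data known. Named genes were all 10, the 3 largest rises and falls per list with mean log2 CPM of at least 2, the striated actins and Mkl2, and the 3 genes most like Cnn2 in pattern, while others (such as Actg2, Myh11, Tpm4, Cald1, Gata6, Fos, Egr2, Junb, Tuft1, Actb, Myl6, Pcsk7, Lima1, Vcl, Fhl1, Rhoc, Cfl1, Anpep, Notch3, Fap, Tnnt3, Dcn and Rgs5) were named after their values were seen.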

Additional observations from a re-analysis of the deposited data

How the results depend on the processing

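The 6 higher and 1 lower of the 10 genes were counted in all 13 alternative fits, and each of the called genes kept its direction and its side of the threshold. Over these fits the log2 fold change ran from 0.87 to 0.97 for Acta2, 0.86 to 1.16 for Tagln, 1.41 to 1.66 for Myl9, 0.19 to 0.27 for Cnn2, 0.28 to 0.35 for Tpm1 and for Mkl1, and -0.60 to -0.39 for Srf. Cnn1, at 0.88 without NC replicate 1, was no longer above 0 at 0.00 without NC replicate 2, and changed sign to -0.01 without NC replicate 3 and -0.03 without miR-497 replicate 3; it was not fitted at a mean count of at least 50, and the cause was not tested. Over the 13 alternative fits, Myl6 ran from -0.05 to 0.06 and Fosb from -0.10 to 0.16, neither called. Over all genes, 3029 to 3350 were higher and 3374 to 3608 lower when single libraries were left out, and 3177 to 3998 and 3422 to 3995 in the other fits. Same-numbered libraries had correlations of their deviations of -0.12, -0.035 and -0.13. These values showed no pairing by number, but they cannot exclude a pairing that the labels do not state. With the replicate block 6 of the 10 genes were higher and 1 lower, and 3177 and 3563 genes were higher and lower over all. In that fit 2 smooth muscle contractile genes were higher and 3 lower. The cytoskeletal genes that respond to MRTF and SRF had 5 higher and 7 lower, and 6 endothelial markers were higher. Smtn (edgeR adjusted p = 0.061), Cald1 (0.1), Tpm4 (0.098), Rhoc (0.094) and Egr2 (0.055) lost their calls. No scaling or filter moved the median of all genes beyond -0.036 or 0.028.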
